A study of Rattus norvegicus with 12 samples.

Results

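The genes described here encode the chains of integrins and laminins, measured by RNA sequencing in rat kidneys from 2 models of renal fibrosis (RF). Symbols that begin with Itga, Itgb, Lama, Lamb or Lamc and name a chain were taken from both expression tables, and 3 integrin-binding proteins with similar names were dropped. Of the 36 genes found, 35 reached the minimum level and were kept: 24 integrin chains, 10 laminin chains and the integrin-like gene Itgbl1, out of 15029 tested entries in the adenine table and 15043 in the UUO table. The chain left out was Itga10, a collagen receptor chain, with FPKM of 0.0999, 0.0372 and 0.0743 in control and 0.172, 0.131 and 0.115 in adenine kidneys, and of 0.0302, 0.0001 and 0.0396 in sham and 0.214, 0.0979 and 0.278 in UUO kidneys. Just inside it, with 3 of 6 kidneys at the minimum, were among others Itga2, with adenine values of 0.808, 0.999 and 1.28, and Itgbl1, with adenine values of 0.862, 1.82 and 1.61. Itgad, Lama3 and Lamb4 were not analysed here.

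All kidneys came from male SD rats of wild-type genotype, 8 weeks old when bought, with 3 rats sequenced in each of 4 groups. The adenine group was given adenine by stomach tube each day (220 mg/kg) over 3 weeks, and the control group saline for as long. In UUO rats the left ureter was tied (unilateral ureteral obstruction) and the kidney taken after 2 weeks, and sham rats had the operation without the tie. Expression is given as FPKM, which counts fragments relative to the length of a transcript and to all mapped fragments of a sample, so that levels of different genes in a kidney are per length.

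An integrin is a receptor made of 1 α and 1 β chain that joins the matrix outside a cell, or a partner protein on another cell, to the actin skeleton inside it. Chains that pair with Itgb2 are made by leukocytes, whereas the chains that pair with Itgb1 or Itgav are made by many tissues, and the αv receptors are known for releasing TGF-β from its latent store. A laminin is a trimer of 1 α, 1 β and 1 γ chain that builds basement membranes, the sheets under tubules and glomerular filters. The glomerular filter of the adult kidney holds the trimer of Lama5, Lamb2 and Lamc1, while Lamb3 belongs to a laminin that anchors stratified and other epithelia through the receptor of Itga6 and Itgb4.

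Promoter sequences were at hand in RefSeq for 28 of the 36 genes and 4 are shown, each the 150 bases before the transcription start on the GRCr8 assembly and written in the direction of the gene. Itgam and Itgax are neighbours whose starts lie 60457 bases apart and which rose together in the adenine model, Itga2b was the member that fell most in both models, and Lamb3 the one that rose most in the UUO model. Capitals mark the ETS core GGAAG on either strand (CTTCC on the other) and the AP-1 site TGANTCA.
Itgam, chr1:192089442-192089591, plus strand: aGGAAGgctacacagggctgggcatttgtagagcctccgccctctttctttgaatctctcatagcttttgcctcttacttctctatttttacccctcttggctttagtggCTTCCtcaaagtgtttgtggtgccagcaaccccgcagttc
Itgax, chr1:192149899-192150048, plus strand: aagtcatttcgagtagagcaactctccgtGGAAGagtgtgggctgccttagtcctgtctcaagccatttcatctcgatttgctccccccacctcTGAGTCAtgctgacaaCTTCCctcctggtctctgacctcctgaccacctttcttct
Itga2b, chr10:87925834-87925983, minus strand: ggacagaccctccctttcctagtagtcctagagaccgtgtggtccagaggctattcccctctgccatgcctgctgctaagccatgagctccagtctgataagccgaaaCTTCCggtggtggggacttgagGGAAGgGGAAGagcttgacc
Lamb3, chr13:107362403-107362552, plus strand: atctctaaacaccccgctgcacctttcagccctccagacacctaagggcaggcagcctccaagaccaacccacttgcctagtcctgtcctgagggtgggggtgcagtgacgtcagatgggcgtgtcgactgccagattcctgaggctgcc

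The ETS core occurred 2 times in the Itgam window and 2 times in that of Itgax, and in both the match nearest to the start begins 40 bases before it. The Itga2b window held 3 matches, the nearest beginning 14 bases before the start, and that of Lamb3 held 0. The AP-1 letters were found in the Itgax window alone among the 4, beginning 56 bases before the start. Among all 33469 promoters of this length, 47% held the ETS core and 3.69% the AP-1 site, against 14 (50%) and 1 (3.57%) of the 28 members. These are matches of letters and not sites shown to bind a factor.

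Pearson correlations of log2(FPKM + 0.1) between rats of a group lay between 0.952 and 0.971. FPKM summed to between 564972 and 582725 in control, 468389 and 487770 in adenine, 619664 and 630244 in sham, and 528811 and 539011 in UUO kidneys. The number of reads is unknown. All tested entries had a median log2 change of 0.30 with adenine and 0.62 with UUO, and 0.014 and 0.032 after median-of-ratios scaling, which sets the typical gene to no change. Calls of chains by adjusted p that depend on this shift are named with their values, and DEG calls lost after this scaling are listed below. Control rat 2 stood apart in the summed level of podocyte markers, at 29.7 FPKM against 136 and 189 in the other controls, and without it 14 members were DEGs in the adenine model. This rat also differed in summed urothelial markers, at 6.96 against 0.740 and 1.46, and in the matrix gene Spp1, at 552 against 49.5 and 56.2. Markers of kidney tubules, which are the mark of the labelled tissue, summed to 2096 to 3087 FPKM in control, 249.9 to 442 in adenine, 3195 to 3849 in sham and 215 to 342 in UUO kidneys, and 5 of 7 fell in the adenine and 6 of 7 in the UUO model. The share of all entries that fell was 19.9% with adenine and 14.4% with UUO.

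Most chain genes were higher in the diseased kidneys of both models. A differentially expressed gene (DEG) had an adjusted p under 0.05 in limma and a log2 fold change of 2 or more in either direction. Of the 35 chains 15 were DEGs that rose in the adenine model and 0 were DEGs that fell, where 10.7% of all tested entries rose and 5.03% fell by this rule. In the UUO model 17 chains were DEGs that rose and 1 a DEG that fell, against 13.2% and 4.21% of all entries. By adjusted p alone, 25 chains rose, 5 fell and 5 did not pass in the adenine model, and 32 rose, 2 fell and 1 did not pass in the UUO model. Of all entries 59.4% passed in the adenine model (39.6% rose and 19.9% fell) and 70.5% in the UUO model (56.1% rose and 14.4% fell). In the adenine model the groups did not overlap for 30 chains, and in the UUO model for 34, against 68% and 75.7% of all entries. The median log2 fold change of the chains was 1.80 in the adenine and 1.91 in the UUO model (1.51 and 1.35 after median-of-ratios scaling).

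These counts moved with the scaling, for the chains and for all entries. After median-of-ratios scaling 12 chains were DEGs that rose and 1 that fell in the adenine model, against 8.72% and 6.37% of all entries. In the UUO model the counts were 13 and 1, against 8.3% and 6.34%. The DEG calls lost there were Itga11 (1.94), Itgb4 (1.996) and Itgb7 (1.75) in the adenine model. In the UUO model they were Itgax (1.90), Itgb2 (1.48), Lama2 (1.90) and Lamc3 (1.43). After quantile normalization 11 chains were DEGs that rose and 2 that fell in each model, where 8.03% of all entries rose and 6.53% fell with adenine, and 7.47% rose and 6.3% fell with UUO. After median-of-ratios scaling 23 chains rose and 5 fell by adjusted p in the adenine model, against 29% and 28.4% of all entries, and 26 rose and 2 fell in the UUO model, against 28% and 27.9%. In 7 chains of the adenine table and 5 of the UUO table no healthy kidney reached FPKM of 0.5, so these genes were tested only because the diseased kidneys were high. All of them were counted among the DEGs that rose, so these DEG counts rest in part on how genes were kept.

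**Figure D1:**
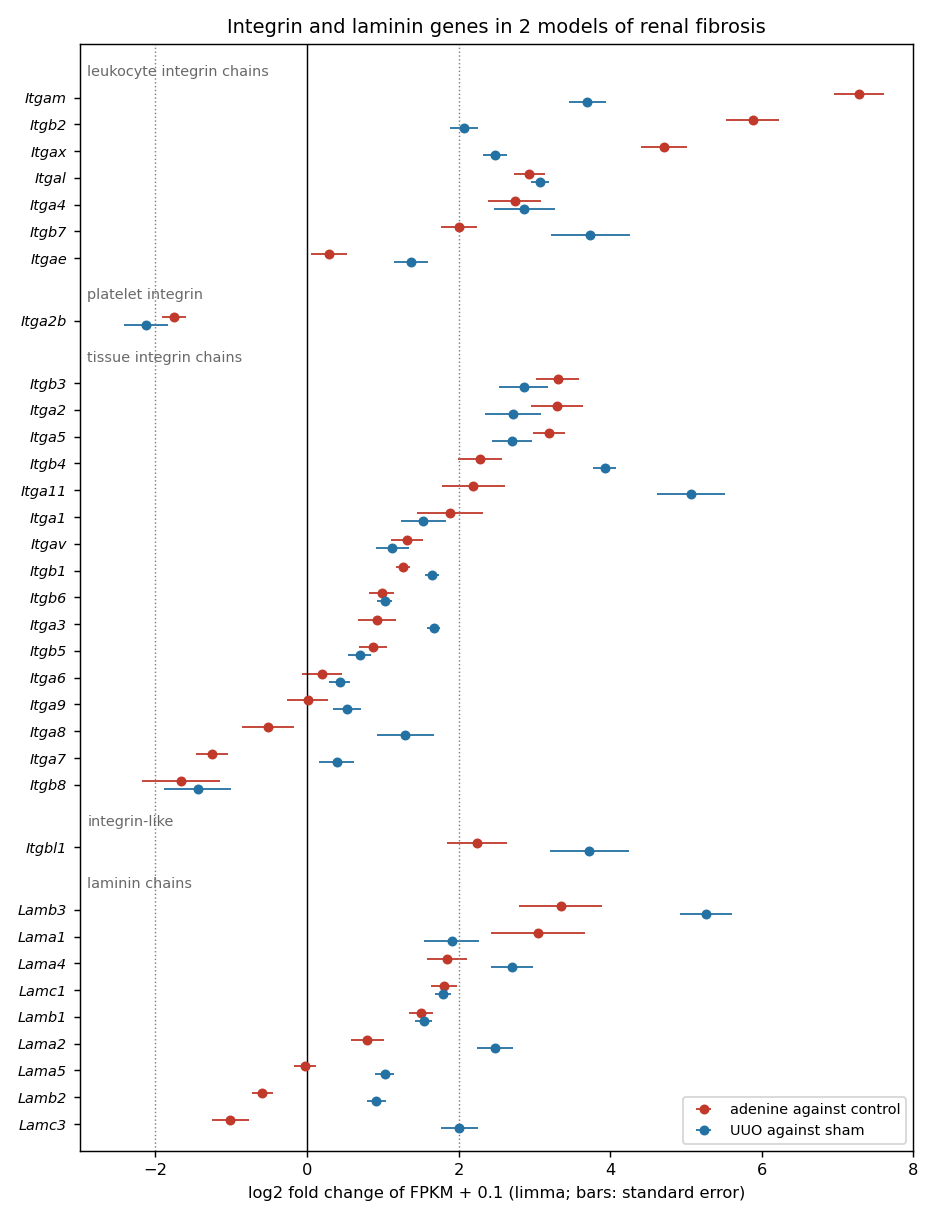
Log2 fold change of FPKM + 0.1 for 34 chain genes, grouped by class, in the adenine model (red, adenine against control) and the UUO model (blue, UUO against sham). Points are limma estimates, bars 1 standard error and dotted lines the DEG threshold of 2 in either direction. Itgam, Itgb2 and Itgax stand far to the right in the adenine model, and Itga2b and Itgb8 lie left of 0 in both models.

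Among the integrins the 7 leukocyte chains had the higher median change in both models. In the adenine model 6 of 7 rose, all as DEGs, with a median log2 fold change of 2.94 (2.65 after median-of-ratios scaling), against a median of 1.13 (0.84) over the 16 tissue integrin chains. In the UUO model 7 of 7 rose and 6 were DEGs, with a median of 2.87 (2.43) against 1.42 (0.83). By comparison, 39.6% of all entries rose and 10.7% were DEGs that rose with adenine, and 56.1% and 13.2% with UUO. The distance between the class medians was 1.81 ± 0.204 in the adenine and 1.45 ± 0.227 in the UUO model (with the SD between rats, and no test). Of the 7 leukocyte chains, 3 in the adenine and 2 in the UUO model were tested with no healthy kidney at 0.5 FPKM. The same held for 3 of the 16 tissue chains in each model, so the medians draw in part on genes kept because diseased kidneys were high.

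Itgb2 is the β2 chain (CD18), which all of the receptors LFA-1, Mac-1 and CD11c/CD18 share. Its FPKM was 3.76, 5.59 and 5.19 in control kidneys and 439.7, 169.9 and 318 in adenine kidneys. It was 7.40, 5.69 and 5.48 in sham and 30.9, 21.0 and 27.6 in UUO kidneys. Neither pair of groups overlapped, and the adenine rats differed among themselves by more than the UUO rats did. The log2 fold change of Itgb2 was 5.88 (SE 0.347, limma adjusted p 4.96e-05) in the adenine and 2.08 (SE 0.184, adjusted p 0.000107) in the UUO model. The UUO value is near the DEG threshold, at 1.48 after median-of-ratios scaling, 1.96 without UUO rat 1 and 2.00 without sham rat 3.

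Itgam encodes the α chain CD11b of Mac-1, found on monocytes, macrophages and neutrophils. It was low in healthy kidneys, with FPKM of 0.223, 0.280 and 0.0976 in control and 0.203, 0.279 and 0.258 in sham rats. In adenine kidneys it was 59.1, 31.5 and 48.9, and in UUO kidneys 5.29, 3.56 and 4.48. The change was 7.28 (SE 0.330, adjusted p 2.61e-05) on the log2 scale in the adenine model, the highest of any chain there, and 3.70 (SE 0.242, adjusted p 3.71e-05) in the UUO model. With no healthy kidney at 0.5 FPKM, these fold changes depend on the added 0.1.

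Itgax encodes CD11c, used as a marker of dendritic cells and of some macrophages. Its FPKM was 2.74, 2.55 and 2.31 in control against 98.1, 42.1 and 78.1 in adenine kidneys, and 2.29, 1.89 and 2.75 in sham against 13.0, 13.4 and 13.4 in UUO kidneys. The 3 UUO rats were nearly alike, while rat 2 was the lowest of the adenine rats, still far above every control. The log2 fold change was 4.71 (SE 0.301, adjusted p 5.99e-05) in the adenine and 2.48 (SE 0.161, adjusted p 3.56e-05) in the UUO model.

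Itgal encodes CD11a, the α chain of LFA-1, which lymphocytes and most other leukocytes carry. FPKM was 2.01, 1.16 and 1.53 in control and 11.7, 12.9 and 12.7 in adenine kidneys, and 1.98, 2.06 and 2.27 in sham and 18.7, 17.2 and 19.5 in UUO kidneys. Its log2 fold changes were 2.94 (SE 0.209, adjusted p 8.23e-05) and 3.08 (SE 0.121, adjusted p 1.09e-05). The difference between the models was 0.14 with an SE of 0.242 and did not pass the test (adjusted p 0.697).

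Itga4, the α chain of VLA-4 on lymphocytes and monocytes, had FPKM of 0.266, 0.140 and 0.108 in control against 1.20, 1.68 and 2.25 in adenine kidneys. In the other model it was 0.0982, 0.0562 and 0.218 in sham against 1.02, 1.56 and 1.98 in UUO kidneys. It was a DEG in both, at 2.74 (SE 0.354, adjusted p 0.00078) and 2.87 (SE 0.402, adjusted p 0.000745), and no healthy rat reached 0.5 FPKM. Itgb7 pairs with Itga4 and with Itgae in receptors of lymphocytes that home to or stay in epithelia. Its FPKM was 0.363, 0.417 and 0.380 in control and 1.54, 1.83 and 2.27 in adenine kidneys, and 0.0809, 0.390 and 0.666 in sham and 6.25, 4.49 and 5.45 in UUO kidneys. The groups did not overlap in either model, and the log2 fold changes were 2.01 (SE 0.240, adjusted p 0.000572) and 3.74 (SE 0.519, adjusted p 0.000716). The adenine value sits at the DEG threshold and fell to 1.87 without adenine rat 3, and the UUO value was 3.15 without sham rat 1. No control rat reached 0.5 FPKM for Itgb7.

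Itgae is the αE chain (CD103) of lymphocytes within epithelia, where its ligand is E-cadherin. Its FPKM was 1.34, 1.35 and 1.33 in control and 1.88, 1.99 and 1.22 in adenine kidneys, which overlapped. It was 0.911, 1.37 and 1.13 in sham and 3.35, 2.55 and 3.35 in UUO kidneys, which did not. Itgae rose in the UUO model by 1.37 (SE 0.225, adjusted p 0.00154, and 0.0927 after quantile normalization). The adenine value of 0.29 did not pass (adjusted p 0.324) and turned to -0.27 after quantile normalization.

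**Figure D2:**
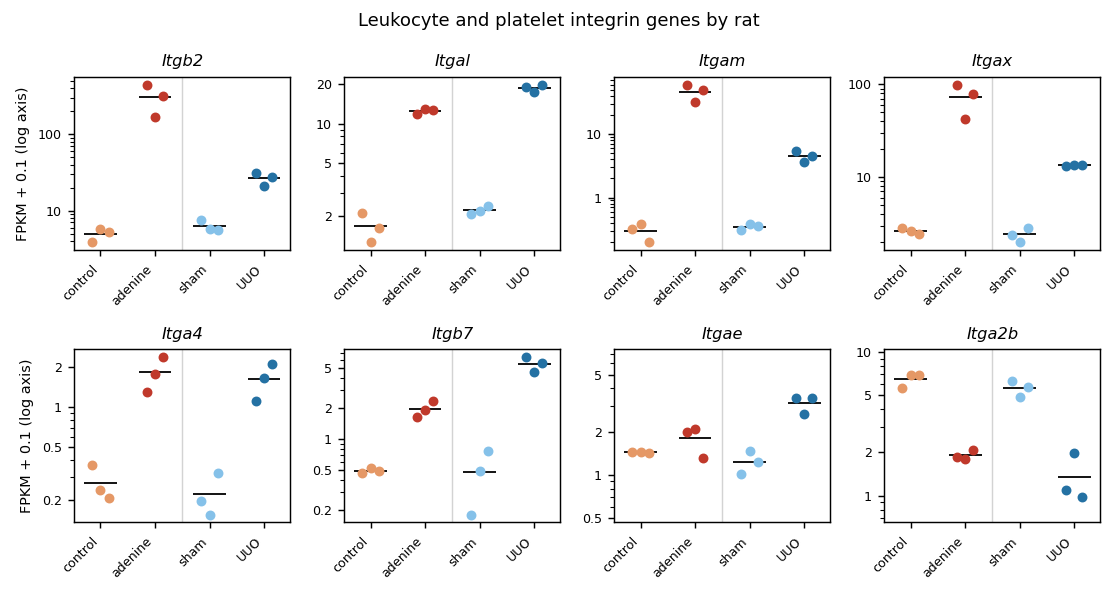
FPKM + 0.1 on a log axis for the 7 leukocyte integrin genes and Itga2b, 1 point per rat, with the group mean as a bar. The control and adenine groups were normalized in one table and the sham and UUO groups in another, so heights compare within each side of a panel. Itgb2, Itgam and Itgax climb more on the adenine side, Itgal and Itga4 about as much in both, and Itga2b falls in both.

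Itgb2 works only as a pair with an α chain, and the make-up of its α partners differed between healthy and diseased kidneys. Of the summed FPKM of Itgal, Itgam and Itgax, the share of Itgam was 4.49, 7.02 and 2.48% in control and 35.0, 36.5 and 35.0% in adenine kidneys. In the other model it was 4.54, 6.60 and 4.88% in sham and 14.3, 10.4 and 12.0% in UUO kidneys. The share of Itgam was thus higher in each diseased rat than in each healthy one, in both models. The share of Itgal was 36.1 ± 6.11% in control and 10.3 ± 4.12% in adenine kidneys (mean ± SD, n = 3), and 45.3 ± 3.05% in sham and 51.1 ± 0.957% in UUO kidneys. Each of these 4 differences had an exact two-sided permutation p of 0.1, the smallest that 3 rats against 3 can give. The share of Itgax was 59.2 ± 4.39% and 54.2 ± 4.95% in the adenine model, where the groups overlapped (exact p 0.4), and 49.3 ± 4.11% and 36.7 ± 2.20% in the UUO model (exact p 0.1).

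Set against its partners, Itgb2 was higher in adenine kidneys and lower in UUO kidneys. The ratio of Itgb2 to the sum of its 3 α chains was 0.757, 1.40 and 1.32 in control and 2.60, 1.97 and 2.27 in adenine kidneys. It was 1.65, 1.35 and 1.04 in sham and 0.835, 0.616 and 0.737 in UUO kidneys. The ratio was higher in every adenine rat than in every control, and lower in every UUO rat than in every sham (exact permutation p 0.1 in each). Itgad, whose chain also pairs with Itgb2, is not in these sums.

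Ptprc, the CD45 phosphatase of all leukocytes, gives a base for these chains. The ratio of Itgb2 to Ptprc was 1.77 ± 0.496 in control and 10.2 ± 3.04 in adenine kidneys (mean ± SD, n = 3, exact permutation p 0.1), and 3.43 ± 1.12 in sham and 2.09 ± 0.564 in UUO kidneys, which overlapped. The ratio of Itgam to Ptprc was 0.0710 ± 0.0328 and 1.57 ± 0.291 with adenine, and 0.143 ± 0.0726 and 0.353 ± 0.103 with UUO, with no overlap in either model. The ratio of Itgax to Ptprc was 0.907 ± 0.0371 and 2.40 ± 0.566 in the adenine model, with no overlap, and 1.25 ± 0.256 and 1.08 ± 0.401 in the UUO model, where the groups overlapped. The ratio of Itgal to Ptprc overlapped between the groups of both models, at 0.557 ± 0.110 against 0.448 ± 0.180 and 1.18 ± 0.427 against 1.48 ± 0.454.

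Markers of leukocytes moved with these chains. Of 13 such genes, 10 were tested in the adenine model and all 10 rose, and 12 were tested in the UUO model and all 12 rose. Beside this, 39.6% of all entries rose with adenine and 56.1% with UUO. The summed FPKM of the leukocyte markers was 22.8 to 28.1 in control and 494 to 767 in adenine kidneys, and 22.4 to 33.4 in sham and 269 to 299 in UUO kidneys. Cd68, a lysosomal protein of macrophages, changed by 6.20 on the log2 scale in the adenine and 3.71 in the UUO model, and the T-cell receptor subunit Cd3e by 2.23 and 3.37. Most of the sum in adenine kidneys was Cd68, at 489, 256 and 420 FPKM, while in UUO kidneys Cd68 had 89.6, 84.7 and 52.8. The B-cell genes Ms4a1 and Cd79b were not tested in the adenine model, since fewer than 3 of the 6 kidneys reached 0.5 FPKM. Ms4a1 had FPKM of 0.0639, 0.0522 and 0.0885 in control and 0.262, 0.349 and 0.211 in adenine kidneys. Cd79b had 0.379, 0.220 and 0.199 in control and 1.16, 0.904 and 0.320 in adenine kidneys. In these whole-kidney samples, more or fewer cells of a type and more or less RNA per cell cannot be told apart, and the part of the leukocyte markers in the result was not tested.

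The partner proteins that leukocyte integrins bind on other cells are their counter-receptors. Of 7 tested counter-receptor genes, 3 rose and 4 did not pass in the adenine model, and 7 rose in the UUO model, with medians of 0.53 and 1.57 on the log2 scale (the difference between the models was not tested). The share of all entries that rose was 39.6% with adenine and 56.1% with UUO, so the adenine count is near the background. Icam1, the ligand of LFA-1 and Mac-1 on endothelium and tubules, had FPKM of 5.34, 5.61 and 6.38 in control and 64.0, 52.7 and 60.3 in adenine kidneys, and 9.66, 7.97 and 5.96 in sham and 65.8, 54.1 and 61.5 in UUO kidneys. Its log2 fold changes were 3.33 (SE 0.122, adjusted p 2.28e-05) and 2.95 (SE 0.182, adjusted p 3.1e-05). Vcam1, the ligand of VLA-4, rose by 1.82 in the adenine model and was a DEG in the UUO model at 2.38 (1.79 after median-of-ratios scaling). Madcam1, the vessel ligand of gut-homing lymphocytes, and Icam4 were below the minimum in both tables.

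Linker proteins join integrin tails to actin. Of 25 tested genes 16 rose, 1 fell and 8 did not pass in the adenine model. In the UUO model 21 rose, 0 fell and 4 did not pass. Of all entries 39.6% and 56.1% rose and 19.9% and 14.4% fell. The linkers had 6 and 4 DEGs, all of which rose. Since 10.7% and 13.2% of all entries were DEGs that rose, the UUO count is near the background. The leading DEGs of the adenine model were the leukocyte parvin Parvg (4.68), the blood-cell kindlin Fermt3 (4.17) and the talin recruiter Apbb1ip (4.16). In the UUO model they were Parvg (3.25), the α-actinin Actn1 (2.99) and Apbb1ip (2.90). Over all 25 genes the median was 1.08 in the adenine and 1.01 in the UUO model (0.81 and 0.41 after median-of-ratios scaling).

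Itga2b, the αIIb chain of the fibrinogen receptor of platelets and megakaryocytes, went the other way. Its FPKM was 5.49, 6.86 and 6.86 in control and 1.77, 1.71 and 1.99 in adenine kidneys, and 6.15, 4.79 and 5.63 in sham and 1.00, 1.87 and 0.874 in UUO kidneys. Every diseased rat was below every healthy one. Itga2b fell by 1.75 (SE 0.164, adjusted p 0.000219) and by 2.12 (SE 0.293, adjusted p 0.0007) on the log2 scale, the second as a DEG. Without UUO rat 3 the UUO change was -1.92. After median-of-ratios scaling the changes were -2.04 and -2.69.

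Among platelet markers, Pf4 rose while the receptor genes were too low to test. Pf4, a chemokine of platelet granules, had FPKM of 1.29, 3.17 and 3.65 in control and 50.8, 51.1 and 48.3 in adenine kidneys, and 3.35, 4.03 and 1.74 in sham and 20.7, 9.78 and 17.9 in UUO kidneys, a rise of 4.28 and 2.38. The von Willebrand receptor genes Gp9 and Gp1bb and the collagen receptor gene Gp6 were below the minimum in both tables, with FPKM for Gp9 of 0.352, 0.169 and 0.240 in control and 0.182, 0.260 and 0.204 in sham kidneys. Itga2b was thus measured at several FPKM in healthy kidneys whose defining platelet receptor genes were near 0. Summed, the 4 platelet markers found in both tables came to 1.73 to 3.92 FPKM in control and 48.6 to 51.2 in adenine kidneys, and to 1.94 to 4.52 in sham and 9.95 to 21.0 in UUO kidneys, which is the level of Pf4 nearly alone. Gp9 had 0.0959, 0.0771 and 0.183 FPKM in adenine and 0.218, 0.0219 and 0.151 in UUO kidneys. The part of these genes in the result was not tested.

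Among the 16 tissue integrin chains, 11 rose, 2 fell and 3 did not pass in the adenine model, and 14 rose, 1 fell and 1 did not pass in the UUO model, with 5 DEGs that rose in each. Over all entries 39.6% rose and 19.9% fell with adenine, and 56.1% rose and 14.4% fell with UUO. DEGs that rose made up 10.7% of all entries with adenine and 13.2% with UUO. Itgb1 is the β chain that most of these receptors share. Its FPKM was 76.9, 68.8 and 78.5 in control and 178, 174 and 188 in adenine kidneys, and 93.9, 89.9 and 104 in sham and 282, 302 and 319 in UUO kidneys. The rats of a group were close to each other and the groups were far apart. Itgb1 rose by 1.27 (SE 0.0981, adjusted p 0.000111) in the adenine and 1.65 (SE 0.0913, adjusted p 2.22e-05) in the UUO model, below the DEG threshold, and by 0.97 and 1.05 after median-of-ratios scaling.

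The receptors of RGD sequences include the αv chain and its β partners. Itgav had FPKM of 4.34, 3.51 and 4.20 in control and 7.51, 12.0 and 11.4 in adenine kidneys, and 7.97, 5.80 and 6.37 in sham and 12.4, 12.6 and 20.1 in UUO kidneys. It rose by 1.32 (SE 0.211, adjusted p 0.00197) and 1.13 (SE 0.222, adjusted p 0.0035), and the UUO call was lost after median-of-ratios scaling (adjusted p 0.0613). Itgb6, the epithelial partner of αv that activates latent TGF-β, had FPKM of 11.9, 8.81 and 13.0 in control and 20.4, 22.7 and 23.4 in adenine kidneys. In the UUO model it was 14.4, 12.7 and 13.0 in sham and 25.5, 28.9 and 27.4 in UUO kidneys. Its rise was 0.99 (SE 0.165, adjusted p 0.00235) and 1.03 (SE 0.0956, adjusted p 0.00013). Every diseased rat was above every healthy one of its model.

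Itgb3, the β partner of αv on activated vessels and macrophages and of αIIb on platelets, was under 0.5 FPKM in each healthy kidney. Its values were 0.243, 0.120 and 0.110 in control and 2.12, 2.38 and 2.69 in adenine kidneys, and 0.176, 0.304 and 0.281 in sham and 1.97, 3.53 and 2.07 in UUO kidneys. It was a DEG in both models, at 3.31 (SE 0.290, adjusted p 0.000172) and 2.86 (SE 0.322, adjusted p 0.000284), while its platelet partner Itga2b fell. Itgb5, another αv partner, rose by 0.87 and 0.70, the latter being 0.10 after median-of-ratios scaling (adjusted p 0.647). Itgb8, the αv partner that also activates TGF-β, fell by 1.66 in the adenine model (adjusted p 0.0274) and by 1.44 in the UUO model (adjusted p 0.0227). The adenine call was lost without control rat 1 (adjusted p 0.0852) or control rat 3 (0.0611), and the UUO call without UUO rat 1 (0.0549), sham rat 1 (0.0632) or sham rat 3 (0.0722).

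Itga5 is the α chain of the fibronectin receptor. FPKM was 2.34, 2.17 and 2.08 in control and 26.5, 15.6 and 22.2 in adenine kidneys, and 1.90, 2.40 and 3.18 in sham and 21.1, 17.2 and 12.2 in UUO kidneys. Its level was several times higher in each diseased rat than in any healthy one, at 3.20 (SE 0.209, adjusted p 6.42e-05) and 2.70 (SE 0.260, adjusted p 0.000147) on the log2 scale. Itga8, the chain of mesangial and other mesenchymal cells that binds nephronectin, overlapped in the adenine model, with FPKM of 3.06, 1.91 and 2.93 in control and 1.07, 2.35 and 2.21 in adenine kidneys. It was 1.78, 1.74 and 2.87 in sham and 3.49, 9 and 4.53 in UUO kidneys. The adenine change of -0.51 did not pass (adjusted p 0.238), and the UUO rise of 1.30 (adjusted p 0.0189) did not pass after median-of-ratios scaling (adjusted p 0.147), without sham rat 1 (adjusted p 0.0549) or without sham rat 2 (0.0605). After quantile normalization the adenine change was -1.05 and passed (adjusted p 0.0269).

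The 3 tested collagen receptor chains, which do not include Itga10, rose in both models. Itga11, the receptor of fibrillar collagen on fibroblasts, was low in healthy kidneys at 0.247, 0.437 and 0.391 FPKM in control and 0.0325, 0.167 and 0.225 in sham rats. It was 1.15, 3.34 and 1.96 in adenine and 6.97, 11.6 and 5.13 in UUO kidneys. The log2 fold change was 2.20 (SE 0.414, adjusted p 0.00392) in the adenine model, 1.83 without adenine rat 2, and 5.07 (SE 0.443, adjusted p 0.000102) in the UUO model. Itga2, the collagen and laminin receptor chain of epithelium and platelets, had FPKM of 0, 0.0431 and 0 in control and 0.808, 0.999 and 1.28 in adenine kidneys, and 0.0447, 0.0255 and 0.118 in sham and 0.747, 1.03 and 1.07 in UUO kidneys. It was a DEG in both models at a low level, with 3.30 (SE 0.344, adjusted p 0.000327) and 2.72 (SE 0.365, adjusted p 0.000619). Itga1, a receptor of basement membrane collagen, rose by 1.89 and 1.54. Markers of mesenchyme moved with these genes, all 4 of 4 rising in each model, and their summed FPKM was 41.9 to 54.7 in control, 189 to 213 in adenine, 33.4 to 59.8 in sham and 327 to 793 in UUO kidneys. The share of all entries that rose was 39.6% with adenine and 56.1% with UUO. The part of the mesenchyme markers in the result was not tested.

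**Figure D3:**
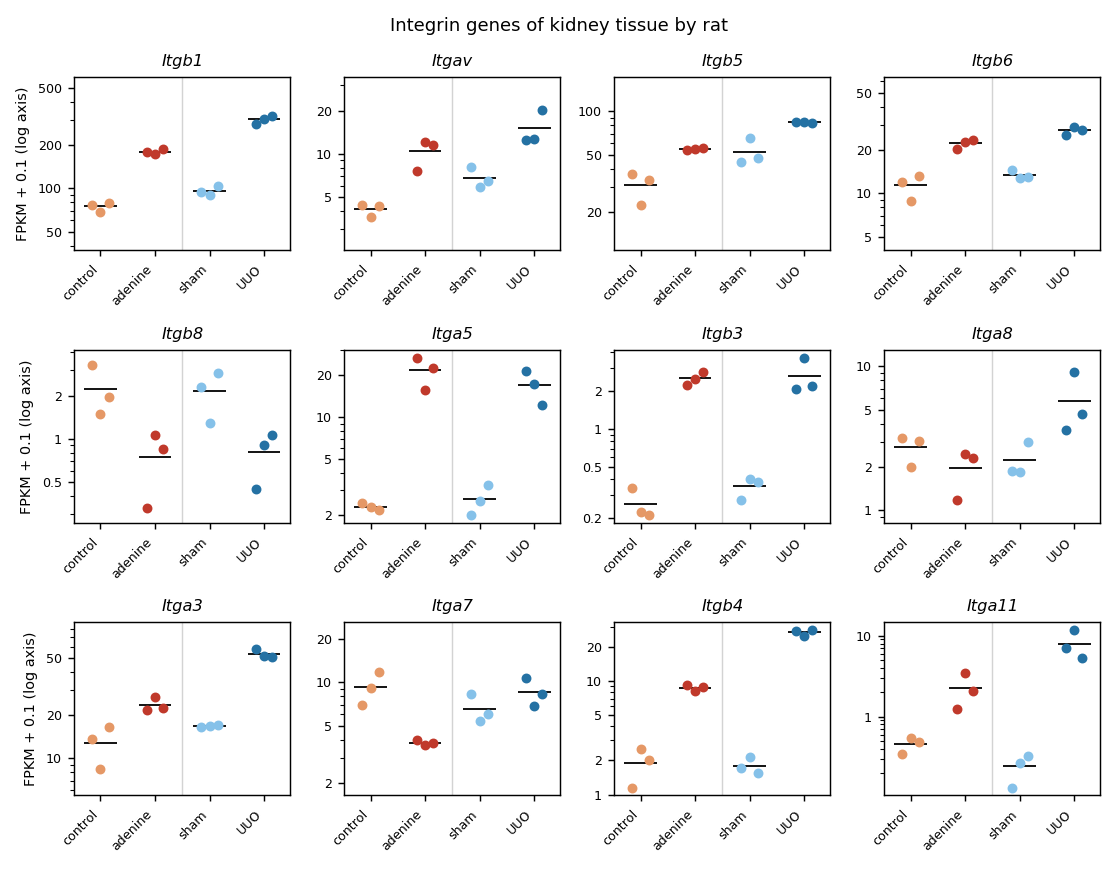
FPKM + 0.1 on a log axis for 12 tissue integrin genes, 1 point per rat, with group means as bars and a separate table in each side of a panel. Itgb1 and Itgb6 rise evenly in both models, Itgb8 falls in both, Itga7 falls with adenine, and Itgb4 and Itga11 rise further with UUO.

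The receptors of laminin did not move as one. Itgb4, the β chain of the hemidesmosome receptor, had FPKM of 1.05, 2.43 and 1.90 in control and 9.06, 8.15 and 8.75 in adenine kidneys, and 1.60, 2.02 and 1.44 in sham and 27.7, 24.9 and 28.1 in UUO kidneys. It was a DEG in both models, at 2.28 (SE 0.292, adjusted p 0.000755, 1.96 without control rat 1) and 3.93 (SE 0.153, adjusted p 1.09e-05). Its α partner Itga6 changed by 0.20 in the adenine model (adjusted p 0.532) and 0.43 in the UUO model (adjusted p 0.0284), and both values turned negative after median-of-ratios scaling (-0.09 and -0.17). The UUO call of Itga6 was lost without sham rat 2 or 3 or UUO rat 2 or 3 (adjusted p 0.0608 to 0.0871). The ratio of Itgb4 to Itgb1, the other β partner of Itga6, was 0.0244 ± 0.0108 in control and 0.0481 ± 0.00247 in adenine kidneys, and 0.0178 ± 0.00434 in sham and 0.0897 ± 0.00799 in UUO kidneys (mean ± SD, n = 3, exact permutation p 0.1 in both). Itga3, the laminin receptor chain of podocytes and tubules, rose by 0.92 and 1.67, the adenine call being lost after median-of-ratios scaling (adjusted p 0.0603) and without adenine rat 2 (0.0529).

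Itga7, the laminin receptor chain of muscle, had FPKM of 6.85, 9.06 and 11.6 in control and 3.90, 3.55 and 3.67 in adenine kidneys. Every adenine rat was below every control, a change of -1.25 (SE 0.206, adjusted p 0.00219). The values of 8.16, 5.31 and 5.88 in sham and 10.6, 6.71 and 8.19 in UUO kidneys overlapped, and the change of 0.39 did not pass (adjusted p 0.16) and was -0.20 after median-of-ratios scaling. Itga9, a receptor chain of tenascin, changed by 0.01 in the adenine model (adjusted p 0.98) and 0.53 in the UUO model (adjusted p 0.0357), and the signs turned after median-of-ratios scaling (-0.27 and -0.06). The UUO call of Itga9 was lost without sham rat 1 or 3 or UUO rat 2 or 3 (adjusted p 0.0819 to 0.106). Itgbl1, a secreted protein with integrin-like repeats, had FPKM of 0.332, 0.121 and 0.213 in control and 0.862, 1.82 and 1.61 in adenine kidneys, and 0.176, 0.291 and 0.581 in sham and 10.9, 3.49 and 4.23 in UUO kidneys. UUO rat 1 was the highest, and no groups overlapped. Itgbl1 was a DEG in both models, at 2.24 (SE 0.396, adjusted p 0.00299) and 3.73 (SE 0.515, adjusted p 0.000705), the first being 2.00 and just under the threshold without control rat 2.

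The matrix ligands of these receptors were counted in the same way. Of 16 tested ligand genes in the adenine model 11 rose, 2 fell and 3 did not pass, with a median of 2.17, and of 17 in the UUO model 15 rose, 1 fell and 1 did not pass, with a median of 2.84, beside 39.6% and 56.1% of all entries that rose. The leading DEGs in the adenine model were the αv ligand osteopontin (Spp1, 6.42), fibronectin (Fn1, 5.46) and periostin (Postn, 4.55). In the UUO model they were Postn (6.37), collagen I (Col1a1, 5.27) and Spp1 (5.06). Postn ranged widely among the UUO rats, at 70.5, 27.7 and 1.60, and Spp1 among the controls, at 49.5, 552 and 56.2.

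Laminin chains rose in most cases. In the adenine model 7 of 10 laminin chains rose, 2 fell and 1 did not pass, with a median log2 fold change of 1.65, and in the UUO model 10 of 10 rose, with a median of 1.96 (1.36 and 1.39 after median-of-ratios scaling). There were 3 DEGs in the adenine and 5 in the UUO model, all of which rose, where 10.7% and 13.2% of all entries were DEGs that rose. Of all entries 39.6% rose and 19.9% fell with adenine, so the count of laminin chains that fell is near the background, and 56.1% rose with UUO.

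Among the α chains, Lama5 is the main chain of adult glomerular and tubular basement membranes. Its FPKM was 8.65, 8.41 and 11.1 in control and 9.23, 8.71 and 9.53 in adenine kidneys, which overlapped. It was 8.86, 7.32 and 7.89 in sham and 18.1, 16.3 and 14.9 in UUO kidneys, which did not. The adenine change of -0.02 did not pass (adjusted p 0.898) and was -0.31 or 0.24 under other scalings, while the UUO rise was 1.02 (SE 0.123, adjusted p 0.00038).

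Lama1, the α chain of embryonic basement membranes, had FPKM of 0.800, 0.634 and 0.0700 in control and 3.14, 4.21 and 4.47 in adenine kidneys, with control rat 3 far below the others. It was 0.450, 1.15 and 1.06 in sham and 2.64, 3.73 and 3.92 in UUO kidneys. Lama1 rose by 3.05 (SE 0.624, adjusted p 0.00554) in the adenine model, as a DEG, with 2.30 without control rat 3, and by 1.91 (SE 0.363, adjusted p 0.00298) in the UUO model. Lama4, the α chain of vessel walls, had FPKM of 2.48, 1.48 and 1.82 in control and 9.17, 7.12 and 5.41 in adenine kidneys, and 1.61, 1.82 and 2.88 in sham and 16.7, 15.7 and 10.2 in UUO kidneys. The rise was 1.85 (SE 0.264, adjusted p 0.00119) and, as a DEG, 2.71 (SE 0.278, adjusted p 0.000194). Endothelial markers did not share one direction, since Cdh5 rose by 0.84 and 2.48 while Emcn fell by 1.79 in the adenine model. Their summed FPKM over 3 genes was 58.8 to 67.2 in control, 21.9 to 32.4 in adenine, 60.7 to 80.5 in sham and 104 to 125 in UUO kidneys, and their part in the result was not tested.

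Lama2, the α chain of muscle and of the mesangium, had FPKM of 1.29, 1.38 and 0.913 in control and 2.13, 2.19 and 2.01 in adenine kidneys, and 1.82, 1.58 and 1.86 in sham and 11.2, 7.30 and 13.0 in UUO kidneys. The groups did not overlap in either model, but the UUO rats were much further from their controls. The rise was 0.79 (SE 0.217, adjusted p 0.0177), which did not pass after median-of-ratios scaling (adjusted p 0.0803), without adenine rat 1 (0.0507) or without adenine rat 2 (0.0569), and 2.48 (SE 0.232, adjusted p 0.000132). As shares of the summed FPKM of the 4 measured α chains, Lama5 held 65.5, 70.6 and 79.8% in control and 39.0, 39.2 and 44.5% in adenine kidneys. It held 69.5, 61.7 and 57.6% in sham and 37.1, 37.9 and 35.4% in UUO kidneys. The share of Lama5 was thus lower in every diseased rat of both models (exact permutation p 0.1 in each), also in the UUO model where its level rose. Lama4 took 14.8 ± 3.44% in control and 32.0 ± 6.73% in adenine kidneys, and 16.4 ± 4.29% in sham and 31.7 ± 6.52% in UUO kidneys (mean ± SD, n = 3), with no overlap in either model (exact permutation p 0.1 in each). Lama1 took 3.96 ± 3.02% of the sum in control and 17.7 ± 3.95% in adenine kidneys (mean ± SD, n = 3), whereas in the UUO model its share overlapped. Lama2 took 13.7 ± 0.496% in sham and 23.7 ± 7.03% in UUO kidneys, and its share overlapped in the adenine model.

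**Figure D4:**
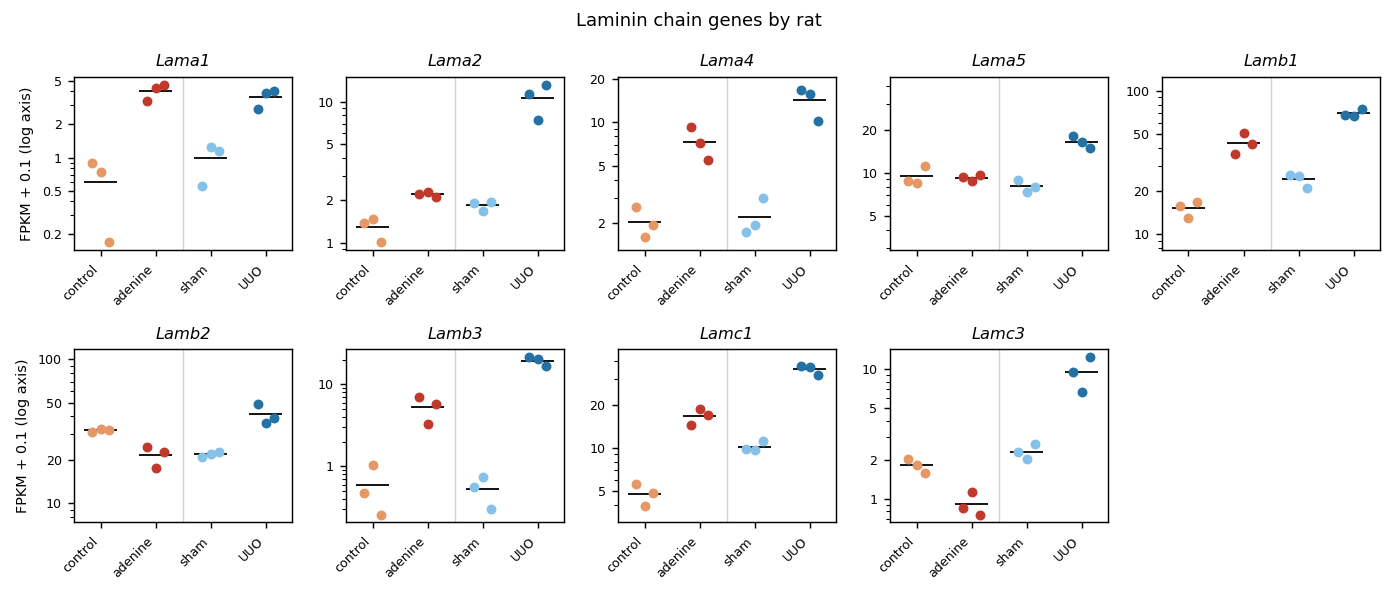
FPKM + 0.1 on a log axis for 9 laminin genes, 1 point per rat, with group means as bars and a separate table in each side of a panel. Lamb2 and Lamc3 are lower in adenine than in control kidneys but higher in UUO than in sham kidneys, and Lama5 is level with adenine and raised with UUO.

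Among the β chains, Lamb2 is the partner of Lama5 in the glomerular filter. Its FPKM was 30.9, 32.8 and 32.1 in control and 24.2, 17.3 and 22.7 in adenine kidneys, all of which were lower. It was 20.9, 21.7 and 22.6 in sham and 49.1, 36.2 and 38.8 in UUO kidneys, all of which were higher. The change was -0.59 (SE 0.143, adjusted p 0.0111) in the adenine and 0.91 (SE 0.127, adjusted p 0.000722) in the UUO model. Each call was lost under a scaling, the first when FPKM was set to the same sum in each rat (adjusted p 0.0851) and the second after median-of-ratios scaling (adjusted p 0.0832). Podocyte markers, of the cells that make the glomerular chains, summed to 29.7 to 189 in control and 21.8 to 56.3 in adenine kidneys, and to 121 to 189 in sham and 46.2 to 83.5 in UUO kidneys, with 1 of 3 falling in each model. Beside this, 19.9% of all entries fell with adenine and 14.4% with UUO. The marker that fell with adenine, Podxl, had groups that overlapped. The part of the podocyte markers in the result was not tested. Lamb1, the β chain of embryonic and of most tubular and vascular laminins, rose by 1.50 and 1.54.

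The ratio of Lamb1 to Lamb2 needs no scaling between rats. It was 0.510, 0.392 and 0.522 in control and 1.50, 2.93 and 1.88 in adenine kidneys, so that Lamb2 was the higher of the pair in each control and Lamb1 in each adenine rat. It was 1.23, 1.18 and 0.919 in sham and 1.39, 1.84 and 1.92 in UUO kidneys. The ratio was higher in every diseased rat of both models (exact permutation p 0.1 in each). In the same kidneys the ratio of Lamc1 to Lamb2 was 0.148 ± 0.0299 in control and 0.801 ± 0.246 in adenine, and 0.463 ± 0.0267 in sham and 0.861 ± 0.129 in UUO kidneys (mean ± SD, n = 3, exact permutation p 0.1 in each).

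Lamb3 is the β chain of the laminin of stratified and transitional epithelia. Its FPKM was 0.373, 0.929 and 0.159 in control and 6.92, 3.18 and 5.64 in adenine kidneys, and 0.462, 0.649 and 0.201 in sham and 21.3, 20.1 and 16.7 in UUO kidneys. It was a DEG in both models, at 3.35 (SE 0.542, adjusted p 0.00206) and 5.27 (SE 0.339, adjusted p 3.48e-05), the highest value of any chain in the UUO model. The share of Lamb3 in the 3 measured β chains was 1.04 ± 0.863% in control and 7.56 ± 2.91% in adenine, and 0.931 ± 0.448% in sham and 14.8 ± 1.81% in UUO kidneys (mean ± SD, n = 3).

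Among the γ chains, Lamc1 is the one that most laminins share. It had FPKM of 5.49, 3.85 and 4.74 in control and 14.3, 18.5 and 16.8 in adenine kidneys, and 9.64, 9.50 and 11.1 in sham and 36.9, 36.3 and 32.2 in UUO kidneys. It rose by 1.80 (SE 0.173, adjusted p 0.00024) and 1.79 (SE 0.106, adjusted p 2.66e-05), below the DEG threshold.

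Lamc3, a γ chain found in few basement membranes, fell with adenine and rose with UUO. Its FPKM was 1.94, 1.71 and 1.49 in control and 0.747, 1.02 and 0.653 in adenine kidneys, and 2.18, 1.91 and 2.55 in sham and 9.53, 6.58 and 12.3 in UUO kidneys. The change was -1.01 (SE 0.243, adjusted p 0.0106) in the adenine and 2.01 (SE 0.249, adjusted p 0.000433) in the UUO model, the latter at the DEG threshold and 1.80 without UUO rat 3. By adjusted p both calls held under the 3 other scalings, with -1.28 and 1.43 after median-of-ratios scaling.

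**Figure D5:**
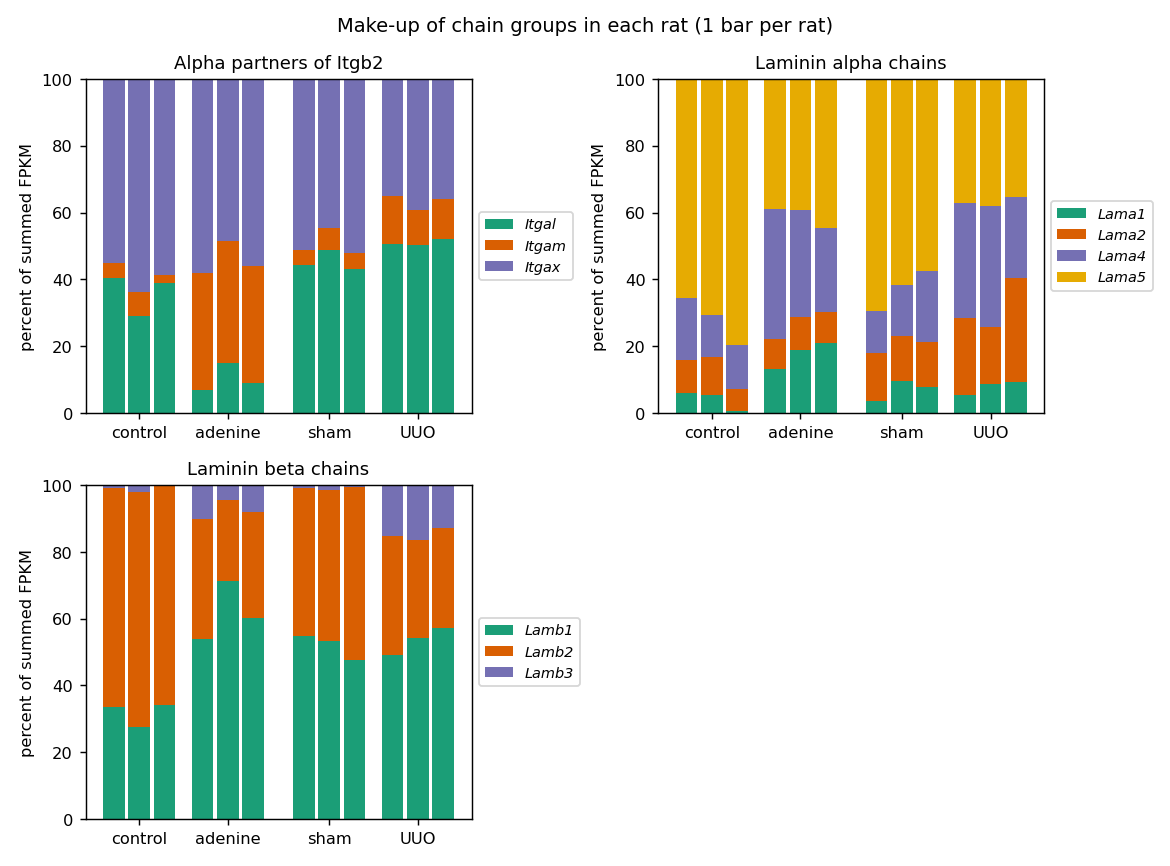
Make-up of 3 groups of chains in each rat, as percent of their summed FPKM, with 1 bar per rat. In adenine kidneys Itgam takes a larger and Itgal a smaller share of the partners of Itgb2, in both models Lama5 has a smaller share in diseased kidneys, and Lamb3 is larger in UUO than in sham kidneys.

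Markers of urothelium, the lining of the renal pelvis and ureter, moved with Lamb3 and Itgb4 in the UUO model. Of 5 urothelial genes (4 uroplakins and Krt5) all 5 were DEGs that rose with UUO, where 13.2% of all entries were. Of these genes 4 were tested only because the UUO kidneys were high. Their summed FPKM was 0.646 to 2.67 in sham and 72.0 to 145 in UUO kidneys. In the adenine model 2 of the 5 were tested and neither passed, and the sums of 0.740 to 6.96 in control and 1.07 to 3.89 in adenine kidneys overlapped, while Lamb3 and Itgb4 rose there too. The part of the urothelial markers in the UUO result was not tested.

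Other proteins hold laminin in the basement membrane or tie it to cells. Of 10 tested partner genes 4 rose, 0 fell and 6 did not pass in the adenine model, with 0 DEGs and a median of 0.43, near the 39.6% of all entries that rose and their median of 0.30. In the UUO model 8 rose, 1 fell and 1 did not pass, with a median of 1.08, where 56.1% of all entries rose and their median was 0.62. With UUO 3 of the 10 were DEGs, where 13.2% of all entries were DEGs that rose. They were the hemidesmosome genes Col17a1 (2.51) and plectin (Plec, 2.37) and the heparan sulfate proteoglycan agrin (Agrn, 2.09). After median-of-ratios scaling their values were 1.98, 1.79 and 1.50, below the DEG threshold. With adenine, Plec rose by 1.72, and Col17a1 (1.73, adjusted p 0.0914) and Agrn (0.25, adjusted p 0.279) did not pass.

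The changes of the 2 models were then set against each other, as the difference of the log2 fold changes (UUO minus adenine) over the combined SE, adjusted over 13486 symbols. A chain was called at an adjusted p under 0.05 and a difference of at least 1. Of the 35 chains 14 were called, 11 with the higher change in the UUO and 3 in the adenine model, where 9.44% and 3.37% of all symbols were called. The 3 on the adenine side were Itgb2 (-3.81, SE 0.393, adjusted p 7.39e-05), Itgam (-3.58, SE 0.409, adjusted p 0.000119) and Itgax (-2.22, SE 0.341, adjusted p 0.000856), the β2 chain and 2 of its α partners. Itgal, the other measured partner, and Itga4 were not called. For Itgam no healthy kidney reached 0.5 FPKM, so the size of its difference depends on the added 0.1.

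The 11 chains on the UUO side were 5 laminins and 6 integrin chains. Lamc3 (3.02, SE 0.348, adjusted p 0.000124) and Itga11 (2.87, SE 0.606, adjusted p 0.0047) differed most. They were followed by Lamb3 (1.92), Itga8 (1.81), Itgb7 (1.73), Lama2 (1.69), Itgb4 (1.65), Itga7 (1.64), Lamb2 (1.50), Itgae (1.08) and Lama5 (1.05), with adjusted p from 0.000274 to 0.04. All symbols had a median difference of 0.28, and of -0.025 after median-of-ratios scaling, where 9 chains were called, all among the 14. Itga8, Itgae, Itgb7, Lama5 and Lamb3 were no longer called there. No healthy kidney reached 0.5 FPKM for Itga11, and no control kidney for Itgb7, so the size of these 2 differences depends on the added 0.1. The models differ in agent, duration and table as well as in disease, and these cannot be told apart.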

How the data were processed

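Poly(A) RNA of 12 rat kidneys was sequenced as strand-marked pairs. The authors deposited FPKM values, made per the submitters' processing notes with cutadapt 1.9, HISAT2 2.0.4 and StringTie 1.3.4d, in 1 table for control and adenine kidneys and another for sham and UUO kidneys. The genome build of the tables was not given in the sources used here. DESeq2 and edgeR, named in the notes, need counts and were not used. Each table was fitted by itself with limma 3.58.1 in R 4.3.3 on log2(FPKM + 0.1), over entries that reached FPKM of 0.5 in 3 or more of the 6 kidneys, with Benjamini-Hochberg adjustment over all of them. A fold change on this scale understates the change of low genes. The steps were tested on simulated data, where 91% (adenine) and 92% (UUO) of 200 changed entries were recovered at an absolute log2 change of 3. Of the unchanged entries, 2 (adenine) and 3 (UUO) were called. Changes near the threshold of 2 and a shift of all entries were not simulated. Read depth is unknown, so no counting interval is given. Ratios and shares were taken within each kidney and tested by exact permutation. Errors of the 2 models were taken as independent where their changes were compared. Median-of-ratios, quantile and same-sum scaling were tried as alternatives, with other pseudocounts and filters and each kidney left out. The members, gene lists and tests were chosen with earlier results of these data known. Values by rat are given for DEGs, for chains that differed between the models and for Itgb1, Itgb2, Itgav, Itgb6, Lamc1, Lama5 and Lamb2, other chains are given by fold change, and up to 3 leading DEGs of each pathway list and model are named. Values of 1 chain and of some marker genes are not reported here, although they stay in the counts, medians and sums.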

Additional observations from a re-analysis of the deposited data

Results flagged for a closer look

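In 14 chains the change in the UUO model differed from that in the adenine model by the test of the difference itself (limma estimates, Benjamini-Hochberg over 13486 symbols, differences as UUO minus adenine on the log2 scale). On the adenine side were Itgb2 and 2 of its α partners, with -3.81 for Itgb2, -3.58 for Itgam and -2.22 for Itgax. In each of these genes both models rose, and the difference is one of size. For Itgam that size depends on the added 0.1, with no healthy kidney at 0.5 FPKM.

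Among the laminins, Lamc3 (3.02) and Lamb2 (1.50) fell in the adenine model and rose in the UUO model. Each call of Lamb2 was lost under a scaling. Its limma adjusted p was 0.0851 in the adenine model after same-sum scaling and 0.0832 in the UUO model after median-of-ratios scaling. Lama2 (1.69) and Lamb3 (1.92) rose in both, and Lama5 (1.05) passed in the UUO model. Lamb3 (adjusted p 0.04) and Lama5 were no longer called after median-of-ratios scaling, where their differences were 1.64 and 0.74.

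Among the integrin chains on the UUO side, Itga11 (2.87), Itgb4 (1.65) and Itgb7 (1.73) rose in both models. The value for Itga11 depends on the added 0.1, with no healthy kidney at 0.5 FPKM. Itga7 (1.64) fell in the adenine model and had UUO values that did not pass, and Itga8 (1.81) and Itgae (1.08) had adenine values that did not pass. After median-of-ratios scaling Itgb7 (1.48), Itga8 (1.51) and Itgae (0.78) were no longer called. Lama2 in the adenine model and Itga8 in the UUO model also lost their own calls when single rats were left out.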

How the results depend on the processing

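The count of DEGs among the chains moved from 15 to 7 in the adenine model with a pseudocount of 1, and to 30 and 34 in the adenine and UUO models with no fold-change threshold. Leaving out 1 rat gave 14 to 16 DEGs in the adenine model, 16 to 18 in the UUO model and 10 to 14 chains that differed between the models. The latter count was 9 after median-of-ratios scaling. The distance between leukocyte and tissue integrin medians was 2.16 and 1.43 in the adenine model with pseudocounts of 0.01 and 1, 1.68 and 1.08 in the UUO model, and 1.72 to 1.96 and 1.32 to 1.53 with 1 rat left out.

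Of single chains that passed, those that turned in direction were Itga6 in the UUO model (-0.17 after median-of-ratios scaling) and Itga9 in the UUO model (-0.055 after median-of-ratios scaling and -0.19 after quantile normalization). With no filter on low values Itga6, Itga8, Itga9 and Itgb8 did not pass in the UUO model. Apart from the scalings, the cause was not tested. Without single rats the DEG threshold was also crossed by Itga1, Itga11, Itgb4, Itgb7, Itgbl1 and Lama4 in the adenine model and by Itga2b, Itgb2, Lama1 and Lamc3 in the UUO model, the adjusted p staying under 0.05.

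The deviations of rats of equal number correlated at -0.0772, -0.123 and -0.0487 in the adenine and 0.05, 0.105 and 0.0593 in the UUO samples. These were not all above 0.1 in either model, and the rats were taken to share only a number. With a replicate block the DEGs were 15 and 18 and 11 chains differed between the models. Itgb8 in the adenine (adjusted p 0.0709) and Itga6 in the UUO model (0.0561) did not pass under the block and Itga7 in the UUO model did (0.0297). All 3 sham samples, and 0 of the control samples, correlated best with their own number, which is a hint from the data and not from the design. Without counts, how far read depth limits the chains below 0.5 FPKM in healthy kidneys is unknown.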
